A study of Mus musculus with 6 samples.

Results

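The regions described here are CpG-rich ATAC-seq peaks that lie far from every annotated transcription start site (TSS) on the mouse autosomes. The limits used sequence and position and were set with earlier results of these lists known: a GC content of 55% or more, an observed to expected CpG ratio of 0.6 or more, a midpoint more than 5 kb from the TSS of any annotated transcript, and no match to the largest family of LINE-associated peaks in these lists (at least 80% identity over at least 100 bp to mm9 chr19:9828174-9828978), a family that was itself found in these lists. The WT list held 522 such peaks among 21698 autosomal peaks (2.41%) and the Spen KO clone 3 list held 563 among 22457 (2.51%), so that 1085 of 44155 peaks were members. Merged across the lists they formed 703 loci. Closest to the distance limit, the nearest WT member lay 5019 bp from a TSS and the farthest excluded WT peak of the same composition lay 4982 bp away. The lowest GC content among WT members was 55.1%, and the highest among those excluded for it was 54.8%.

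The cells were haploid mouse embryonic stem cells (mESCs) of mixed background with a doxycycline-inducible Xist transgene, grown in serum and LIF. The WT list came from the HATX WT line and the other list from clone 3, which is 1 clone with a full deletion of Spen, an RNA-binding repressor that Xist needs for silencing. Both lines have records of untreated cells and of cells given doxycycline (2 ug/ml, 48 hr). The lists do not state which of these they came from, so nothing here is assigned to doxycycline. They also do not say whether the 2 replicate values of a line come from its untreated and its treated record. A difference between replicates therefore cannot be told apart from doxycycline. Another clone, Spen KO clone 2, has records too but was not analysed here. The authors called peaks on each of 2 technical replicates and combined them into 1 list per line by the Irreproducible Discovery Rate (IDR). There is therefore no replicate of a line: no test between the lines was made, and intervals cover counting error only. The read depth is unknown.

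Most CpG dinucleotides of the mouse genome are methylated and have been depleted by mutation over evolution. CpG islands are stretches that escaped this, and most of them are promoters, whereas islands away from annotated promoters are often called orphan islands. Proteins with a CXXC domain bind unmethylated CpG, and young LINE-1 retrotransposons also carry a CpG-rich promoter at their 5′ end. The lists hold accessibility only, so methylation was not measured here.

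The sequences below show what such a peak looks like before any value is given. Each is the 300 bp around the midpoint of a peak, read 5′ to 3′ on the plus strand of mm9, with every CpG in capitals. The first pair are the strongest peaks shared by both lists.

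chr16:57391405-57391704: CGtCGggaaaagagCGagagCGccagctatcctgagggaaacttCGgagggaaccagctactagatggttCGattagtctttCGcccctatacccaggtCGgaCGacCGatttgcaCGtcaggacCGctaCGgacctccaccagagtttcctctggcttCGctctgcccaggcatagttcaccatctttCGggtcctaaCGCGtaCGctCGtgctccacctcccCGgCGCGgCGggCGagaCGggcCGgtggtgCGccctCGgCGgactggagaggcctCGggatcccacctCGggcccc
chr1:197067751-197068050: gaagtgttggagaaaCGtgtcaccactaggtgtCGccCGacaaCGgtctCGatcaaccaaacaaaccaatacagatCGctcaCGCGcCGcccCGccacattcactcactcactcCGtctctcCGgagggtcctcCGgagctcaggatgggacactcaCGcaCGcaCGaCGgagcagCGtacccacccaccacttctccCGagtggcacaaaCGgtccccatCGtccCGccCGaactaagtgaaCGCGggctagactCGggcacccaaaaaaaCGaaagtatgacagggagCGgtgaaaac

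The next pair are the WT-only peaks with the highest scores whose window holds no annotated UTR. A WT-only peak in the UTR of Doc2b ranked between them and is not shown.

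chr5:109332412-109332711: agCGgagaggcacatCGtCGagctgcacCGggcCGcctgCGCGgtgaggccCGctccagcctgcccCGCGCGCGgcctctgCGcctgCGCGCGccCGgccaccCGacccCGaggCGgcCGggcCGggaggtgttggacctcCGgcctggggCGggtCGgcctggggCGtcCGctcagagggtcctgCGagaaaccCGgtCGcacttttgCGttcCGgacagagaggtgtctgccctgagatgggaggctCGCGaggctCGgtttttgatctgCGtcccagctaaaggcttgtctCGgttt
chr2:151855047-151855346: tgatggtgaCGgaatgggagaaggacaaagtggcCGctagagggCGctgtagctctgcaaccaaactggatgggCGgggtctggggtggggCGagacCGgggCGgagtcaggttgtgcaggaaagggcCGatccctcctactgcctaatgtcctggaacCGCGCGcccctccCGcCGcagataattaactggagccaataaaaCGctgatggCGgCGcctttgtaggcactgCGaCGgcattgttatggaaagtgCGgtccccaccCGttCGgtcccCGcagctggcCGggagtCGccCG

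The next pair are the highest-scoring peaks found in the clone 3 list only.

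chr17:69186267-69186566: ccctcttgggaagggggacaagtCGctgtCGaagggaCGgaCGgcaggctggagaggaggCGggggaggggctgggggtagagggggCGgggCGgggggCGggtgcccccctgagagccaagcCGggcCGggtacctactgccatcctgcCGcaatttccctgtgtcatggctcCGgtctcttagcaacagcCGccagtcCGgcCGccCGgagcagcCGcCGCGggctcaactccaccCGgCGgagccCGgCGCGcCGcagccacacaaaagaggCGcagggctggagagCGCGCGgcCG
chr3:104795669-104795968: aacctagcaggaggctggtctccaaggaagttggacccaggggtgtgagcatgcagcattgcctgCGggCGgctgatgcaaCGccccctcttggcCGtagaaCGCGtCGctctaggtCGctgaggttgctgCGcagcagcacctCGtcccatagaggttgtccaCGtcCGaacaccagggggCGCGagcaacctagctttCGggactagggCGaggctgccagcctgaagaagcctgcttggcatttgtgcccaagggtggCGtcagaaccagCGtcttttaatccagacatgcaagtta

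One sequence stands for the repeated family on which the clone 3-only counts turn, and it holds the Yy1 motif AAGATGGCG or its reverse complement.

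chr7:32156630-32156929: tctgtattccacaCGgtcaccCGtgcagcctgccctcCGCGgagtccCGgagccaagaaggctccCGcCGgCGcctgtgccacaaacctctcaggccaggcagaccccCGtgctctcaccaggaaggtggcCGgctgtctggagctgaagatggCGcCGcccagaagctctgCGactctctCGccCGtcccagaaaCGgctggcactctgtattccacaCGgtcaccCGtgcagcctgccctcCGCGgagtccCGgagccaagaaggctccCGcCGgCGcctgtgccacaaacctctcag

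The next was the shared peak whose rank was lowest in clone 3 relative to WT.

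chr7:25964732-25965031: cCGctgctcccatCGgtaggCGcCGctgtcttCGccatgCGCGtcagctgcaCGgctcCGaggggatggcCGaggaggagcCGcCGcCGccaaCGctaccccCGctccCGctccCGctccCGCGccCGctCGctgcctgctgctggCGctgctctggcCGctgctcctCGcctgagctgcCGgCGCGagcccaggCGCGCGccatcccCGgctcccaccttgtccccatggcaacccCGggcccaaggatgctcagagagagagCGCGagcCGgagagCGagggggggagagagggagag

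The last pair are units of an array of near-copies on chromosome 6. The first scored highest and the second was found in the WT list only.

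chr6:47713244-47713543: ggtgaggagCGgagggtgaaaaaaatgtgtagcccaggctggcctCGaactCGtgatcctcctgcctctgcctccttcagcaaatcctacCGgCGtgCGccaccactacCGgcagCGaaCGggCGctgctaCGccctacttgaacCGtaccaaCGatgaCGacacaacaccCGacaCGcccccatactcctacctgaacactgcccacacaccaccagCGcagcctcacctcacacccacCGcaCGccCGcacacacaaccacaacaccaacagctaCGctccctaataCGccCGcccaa
chr6:47626636-47626935: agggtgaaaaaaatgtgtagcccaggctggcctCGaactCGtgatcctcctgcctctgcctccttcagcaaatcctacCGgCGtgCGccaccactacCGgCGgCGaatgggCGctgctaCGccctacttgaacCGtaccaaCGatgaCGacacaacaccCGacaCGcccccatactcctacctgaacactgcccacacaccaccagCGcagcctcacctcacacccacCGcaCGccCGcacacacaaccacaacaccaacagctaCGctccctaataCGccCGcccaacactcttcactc

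The windows held between 18 and 37 CpG. The strongest shared peak had 31 CpG in its 300 bp, the strongest WT-only peak had 37 and the strongest clone 3-only peak had 30. The LINE-side sequence had 24.

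A peak is called shared where 1 bp or more of it overlaps any peak of the opposite list, and list-only otherwise. Each peak carries 1 deposited value per replicate, in a unit the sources do not name. The score is the mean of those values, and its percentile within the list is the measure by which the lists are compared. Replicate values are printed as the data behind it, and a difference between the raw values of the 2 lists is not read as a change. Across members the Spearman correlation of the replicates was 0.819 in the WT list (n = 522) and 0.805 in the clone 3 list (n = 563). Replicates come from the same line, and the correlation is a description. Among marker genes of the labelled cell type, 2 of 8 embryonic stem cell genes had a peak within 1 kb of a TSS in the WT list (Sox2 and Zfp42) and 3 of 8 did in clone 3 (Esrrb, Klf4 and Zfp42). Among 6 fibroblast genes, 1 had such a peak in each list (Thy1 in WT and Vim in clone 3).

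In the WT list 111 of the 522 CpG-rich distal peaks had no partner in clone 3, a share of 21.3% (95% Wilson interval 17.97 to 24.98), against 26% of all autosomal WT peaks. In the clone 3 list 148 of 563 had no WT partner, or 26.3% (22.8 to 30.1), against 28.4% of all autosomal clone 3 peaks. The WT share lay below its background and the clone 3 share had an interval that held it. Of the shared WT members, 381 of 411 overlapped a peak that was also a member in clone 3, and the partners of the other 30 fell outside the composition limits.

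The members were not 1 kind of sequence, and the list-only counts split with the kind. A repeated family accounted for 71 WT peaks and 128 clone 3 peaks. Its members match mm9 chr4:10661590-10662538, lie on all 19 autosomes and consist of 24-base sequences that occur a median of 902 times in the genome. Every WT member and every clone 3 member of the family had sequence of L1Md_F, a mouse LINE-1 subfamily, within 8 kb. L1Md_F2 sequence lay beside 71 of 71 WT and 127 of 128 clone 3 members as well, so the match does not single out L1Md_F. For members outside the family the L1Md_F share was 3.99% in WT (2.54 to 6.22) and 4.598% in clone 3 (2.996 to 6.995), and for CpG-poor distal peaks it was 6.64% and 8.47%. Identity to the chromosome 4 copy ranged from 94.1% to 97.2% in the WT list and from 93.8% to 97.8% in the clone 3 list. The study's methods describe peak calling from uniquely mapping reads and also a repeat of the analysis in which reads with several matches were placed at random. Unique reads alone can leave copies as alike as these under-called in both lists, and the part of mapping in the counts was not tested.

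In this LINE-side family 69 of 128 clone 3 peaks were absent from the WT list, or 53.9% (45.3 to 62.3), and 8 of 71 WT peaks were absent from clone 3, or 11.3% (5.82 to 20.7). Outside the family the order was the opposite in these settings. There 103 of 451 WT peaks were WT-only, or 22.8% (19.2 to 26.9), and 79 of 435 clone 3 peaks were clone 3-only, or 18.2% (14.8 to 22.1). These last intervals overlap, and the order turned, to 20.7% in WT and 25% in clone 3, with LINE matches kept. At an IDR of 0.01 or less the shares were 28.1% and 10.6%. The family was split off with its values known. The largest family of LINE-associated peaks, which the choice of members left out, gave 14.1% in WT and 63.0% in clone 3, in the same order as the LINE-side family.

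**Figure D1:**
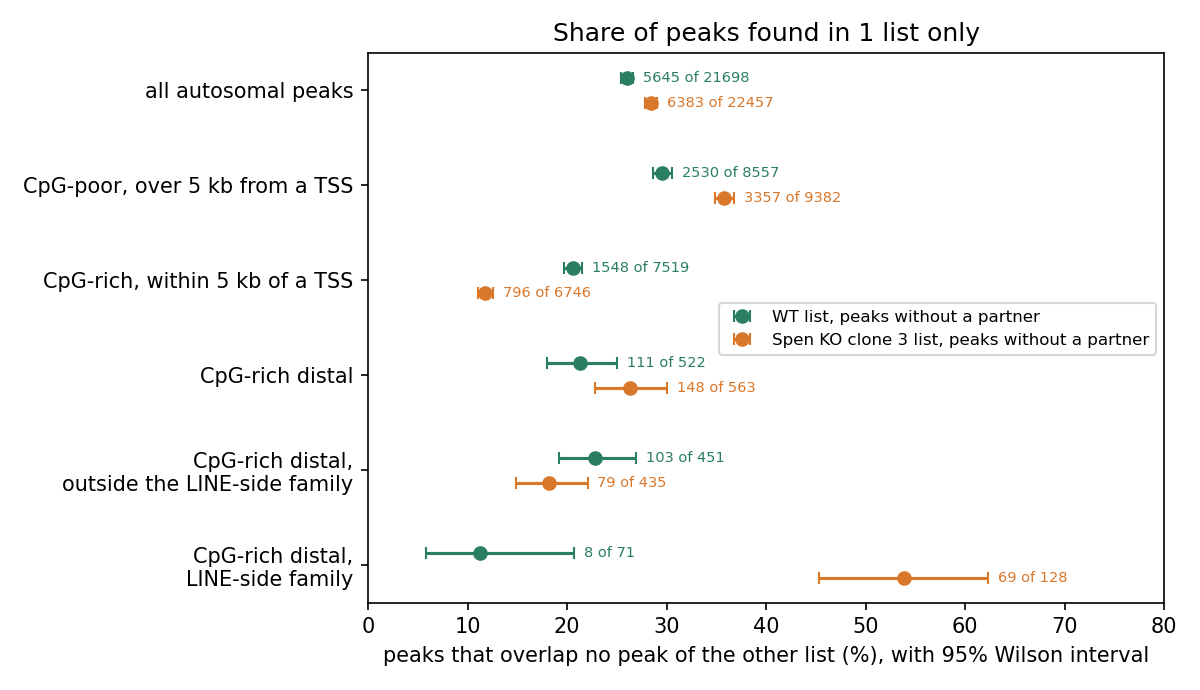
The horizontal axis gives the percentage of peaks that overlap no peak of the other list, with 95% Wilson intervals, for the WT list (green) and the Spen KO clone 3 list (orange) in each class of autosomal peak. The LINE-side family stands at 11.3% in WT and 53.9% in clone 3, whereas the CpG-rich distal peaks outside it stand at 22.8% and 18.2%.

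Outside the family the CpG-rich distal peaks lay between the promoter-type peaks and the other distal peaks. CpG-rich peaks within 5 kb of a TSS were WT-only in 20.6% of cases (19.7 to 21.5) and clone 3-only in 11.8% (11.1 to 12.6). CpG-poor peaks more than 5 kb from a TSS were WT-only in 29.6% (28.6 to 30.5) and clone 3-only in 35.8% (34.8 to 36.8). Thus the clone 3-only share of the CpG-rich distal peaks outside the family was above that of the CpG-rich promoter-side peaks and below that of the CpG-poor distal peaks, with intervals that did not overlap. The WT-only share had an interval that held the promoter-side value.

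List-only peaks were weak peaks, so the shares were also read within quartiles of the score. Outside the family the WT-only share fell from 53.8% (44.3 to 63.1) in the lowest quartile of the WT list to 30.9% (23.0 to 40.1), 10.1% (5.73 to 17.2) and 1.56% (0.430 to 5.52) in the highest. All autosomal WT peaks gave 59.7%, 31.7%, 11.9% and 0.774%, and each of these values lay within the interval of the CpG-rich distal peaks. The clone 3 list gave other values in its middle quartiles. Its clone 3-only share outside the family was 53.0% (44.0 to 61.8) in the lowest quartile and 10.2% (5.64 to 17.8) in the next, where all autosomal clone 3 peaks gave 60.9% and 34.3%. At the next quartile up the share was 6.42% (3.15 to 12.7) against 15.97%, and in the highest it was 0 of 111 (0 to 3.35) against 2.49%. The intervals of these middle quartiles lay below the background, and those of the lowest and highest held it. CpG-rich peaks within 5 kb of a TSS gave 9.81% (8.37 to 11.5) in the second quartile, within the interval of the members, and 1.76% (1.24 to 2.50) in the next, below it. In the LINE-side family 45 of 75 clone 3 peaks in the second quartile were clone 3-only, or 60% (48.7 to 70.3).

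**Figure D2:**
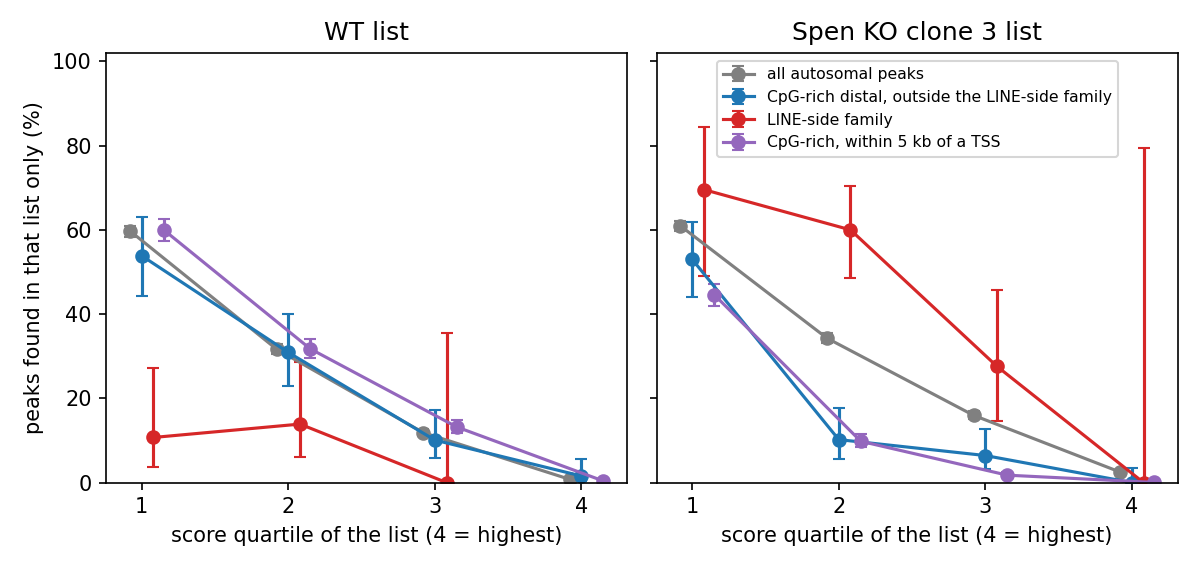
The share of peaks found in 1 list only (vertical axis, %, with 95% Wilson intervals) is plotted against the score quartile of that list, for the WT list (left) and the Spen KO clone 3 list (right). In the second quartile of the clone 3 list the CpG-rich distal peaks outside the LINE-side family stand at 10.2%, all peaks at 34.3% and the LINE-side family at 60%.

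The median score percentile told the same from the other side. Outside the family shared peaks had a median percentile of 63.1 (55.7 to 68.2) in WT and 59.1 (54.9 to 63.2) in clone 3. WT-only peaks had a median of 20.5 (13.1 to 30.7) in their list, and clone 3-only peaks one of 10.1 (6.71 to 15.6) in theirs. List-only peaks were also shorter, with medians of 492 bp (452 to 537) for WT-only and 436 bp (407 to 480) for clone 3-only against 609.5 bp (576 to 630) for the shared WT peaks. Composition was used to choose the peaks, so that similar medians are partly set by the choice. The median GC content was 63.4% for shared WT peaks, 64.0% for WT-only and 63.9% for clone 3-only. The median CpG ratio was 0.737, 0.753 and 0.745. The list-only share by GC content was lowest between 60% and 65%, at 16.5% in WT (11.6 to 22.9) and 14.0% in clone 3 (9.44 to 20.3), and it was 31.7% (21.6 to 44.0) and 31.2% (21.2 to 43.4) at 70% or more. All autosomal peaks gave 19.5% and 32.6% in these bands in WT, within the intervals of the members. In clone 3 they gave 25.6% and 19.9%, so there the members lay below the background between 60% and 65% and above it at 70% or more.

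Shared peaks were compared by rank. The rank shift is the percentile in the clone 3 list minus that of the WT partner, so a negative value means a lower rank in clone 3. Over the 415 shared clone 3 members the median shift was -1.62 (-2.74 to -0.220), and over all 16074 shared autosomal peaks it was -0.0981. The members' value was -0.794 without replicate 2 and -2.66 without replicate 1, and it turned to 0.00809 with LINE matches kept and also at scores from the list median up, so its direction depends on these choices. Again the family moved 1 way and the rest the other. The 59 shared LINE-side pairs had a median shift of 14.1 (10.4 to 19.8), from a median percentile of 28.5 in WT to 47.1 in clone 3. The 356 other pairs had a median shift of -2.90 (-4.51 to -1.73). Without replicate 2 these medians were 8.16 and -1.39, and without replicate 1 they were 18.7 and -4.43.

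Within the family 29 of 59 pairs had both clone 3 replicates above both WT replicates in percentile, and 2 had both below. Outside it 38 of 356 (10.7%, 7.88 to 14.3) were above without overlap and 113 (31.7%, 27.1 to 36.7) below. Over all shared autosomal peaks 22.9% were above and 23% below. The CpG-rich peaks within 5 kb of a TSS gave almost the same pair of values as the distal members, 11.6% (10.9 to 12.5) above and 30.6% (29.4 to 31.8) below, with a median shift of -3.37 (-3.68 to -2.96). The CpG-poor distal peaks went the other way, with 32.8% (31.7 to 34.03) above, 16.8% (15.9 to 17.7) below and a median shift of 3.45 (3.02 to 3.95). Ranks within a list are relative, so a class that ranks higher makes others rank lower, and the shift of 1 class cannot be told apart from the shift of the rest.

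**Figure D3:**
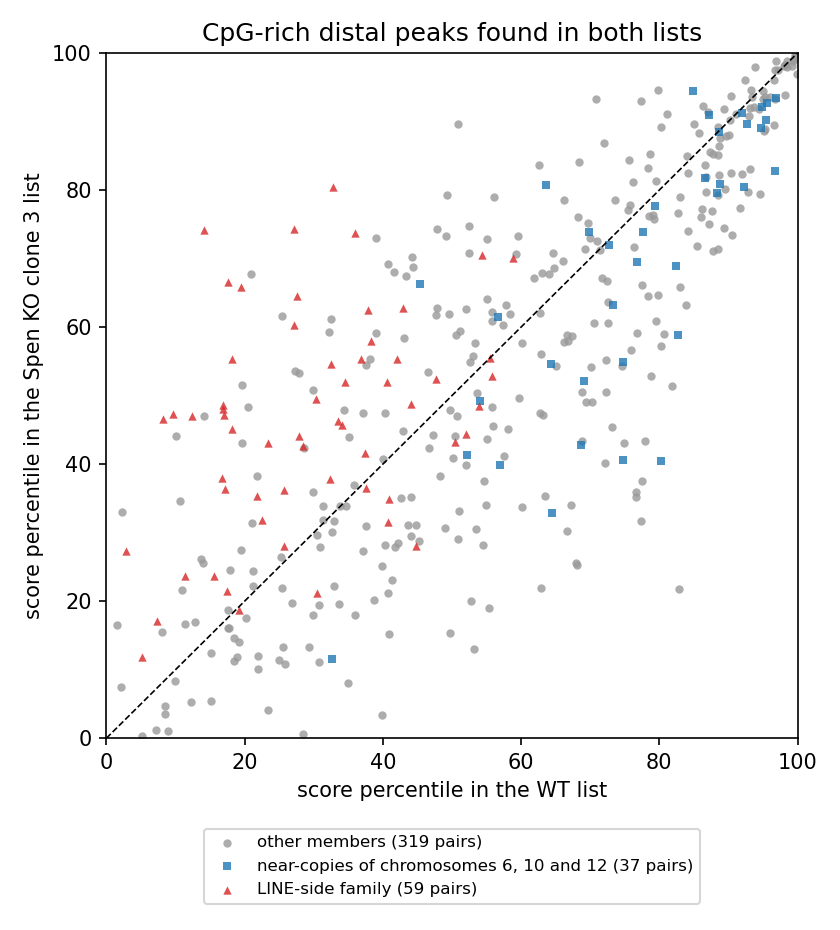
Each point is a CpG-rich distal peak found in both lists, with its score percentile in the WT list on the horizontal axis and in the Spen KO clone 3 list on the vertical axis, and the dashed line marks equal percentiles. The LINE-side family (red triangles, 59 pairs) lies mostly above the line. The near-copies of chromosomes 6, 10 and 12 (blue squares, 37 pairs) lie mostly below it. Of these 37 pairs, 1 was above and 16 (43.2%, 28.7 to 59.1) were below without overlap of the replicates. Over all shared autosomal peaks 22.9% were above and 23% below.

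The strongest shared peaks were chosen by their percentiles in both lists, so that a high rank in each was given by the choice. The peak at chr16:57391184-57391926 in clone 3, in an intron of 2610528E23Rik, had replicate values of 215 and 217 in WT and of 216 and 196 in clone 3. The peak at chr1:197067637-197068166, 64.99 kb from the coding TSS of Cr2, had 175 and 177 in WT and 146 and 145 in clone 3. The peak at chr10:11211774-11212137, 117 kb from the nearest coding TSS (Gm9797), had 92.4 and 100 in WT and 89.0 and 76.4 in clone 3. The chromosome 16 peak has near-copies on chromosome 12 (chr12:100883190-100883927) and on chromosome 15, which were shared as well. Of its 24-base sequences 31.25% occur at least 10 times in mm9, and the median is 4 copies. Reads of other copies may count at this peak, and no list of high-signal regions was used. The part of mapping in its rank was not tested.

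Among the next 3, chr8:72240298-72241238 lies 6.15 kb from the TSS of the zinc finger gene Zfp869, with values of 77.8 and 89.5 in WT and 67.8 and 80.8 in clone 3. The peak at chr1:179913143-179914035, 7.98 kb from the TSS of Gm16432, had 86.2 and 65.5 in WT and 61.4 and 60.7 in clone 3. The peak at chr3:90096659-90097332 had 74.4 and 66.1 in WT and 58.5 and 54.99 in clone 3. It lies in an island of 1080 bp and matches the RefSeq promoter of Gatad2b, which encodes a subunit of the NuRD repressor complex, although the nearest coding TSS of the annotation used for distances (Dennd4b) is 17.6 kb away.

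The strongest WT-only peak, chr5:109332255-109332869, had values of 33.8 and 26.9 (percentile 81.6) and lies 38.7 kb from the TSS of Gm10417. The peak at chr11:75582776-75583167 in the UTR of Doc2b, a calcium sensor of vesicle release, had 29.4 and 29.3. The replicates of chr2:151854972-151855423 (34.4 and 17.2) and of chr15:76755652-76756296 (33.4 and 16.5) lay far apart, at percentiles of 85.5 and 42.3 and of 84.4 and 38.01. The peak at chr10:81233531-81234227 (22.2 and 23.2) belongs to the near-copies described below. The sixth, chr8:128093542-128094300 (21.1 and 23.6), has a GC content of 75.9% and 115 CpG, and matches the RefSeq promoter of Sipa1l2, whose annotated TSS in the mm9 annotation is 77.3 kb away.

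The strongest clone 3-only peak, chr17:69186054-69186781, had values of 20.4 and 25.4 (percentile 71.3). It lies 320 kb from the coding TSS of Epb4.1l3 and matches the RefSeq promoter of Tmem200c. The peak at chr3:104795626-104796013 had 25.8 and 17.3 and lies 31.2 kb from the TSS of Wnt2b, a secreted Wnt ligand. The peak at chr17:22217950-22218356 had 17.4 and 24.1. The other 3 of the top 6, chr7:32156422-32157138 (23.5 and 19.3), chr5:60947697-60948505 (21.5 and 19.01) and chr6:49566316-49567281 (19.9 and 20.3), all belong to the LINE-side family. No WT-only peak of the top 6 did.

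The 3 largest upward shifts among pairs without replicate overlap were also LINE-side peaks. The peak at chr7:111069942-111070852 in an intron of the olfactory receptor gene Olfr631 had values of 10.7 and 14.5 in WT and 17.3 and 30.6 in clone 3, a shift of 60.1 percentiles. The peak at chr1:113477227-113478049, 284 kb from the TSS of Dsel, had 18.7 and 13.9 in WT and 29.5 and 23.7 in clone 3 (47.6). The sequence of both was repeated, with 24-base sequences that occur a median of 1001 and 440 times.

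The 3 largest downward shifts among pairs without replicate overlap were single-copy peaks. The peak at chr7:25964666-25965098, 27.4 kb from the TSS of D930028M14Rik and with a GC content of 74.6%, had 31.3 and 30.9 in WT and 10.4 and 15.5 in clone 3, a shift of -61.0. The peak at chr1:6372778-6373382 in an intron of Fam150a had 28.4 and 27.6 in WT and 15.1 and 14.6 in clone 3 (-45.7). The peak at chr17:56564457-56565018 in an intron of Ptprs, a receptor tyrosine phosphatase of neurons, had 19.4 and 28.8 in WT and 13.7 and 13.7 in clone 3 (-42.4). Both clone 3 replicates were below both WT replicates at each of these 3, which the choice of the peaks required.

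Besides the LINE-side family the members held 5 groups of near-copies, of which the 3 largest each lay on 1 chromosome. On chromosome 12 between 18616550 and 24486124 lay 17 WT peaks and 17 clone 3 peaks, all shared, with a median shift of -3.79 (-9.99 to -2.74) and 15 of 17 pairs below 0. Among the 314 shared members in no group of copies, 190 were below 0, and 97 were lower and 35 higher without overlap of the replicates. On chromosome 12 these non-overlap counts were 9 and 0 of the 17 pairs. Over all shared autosomal peaks 23% were lower and 22.9% higher without overlap. On chromosome 10 between 81149838 and 81591203, where some units lie next to the zinc finger gene Zfp873, a second group held 9 WT peaks, of which 4 were WT-only (26% of all autosomal WT peaks were), and 6 clone 3 peaks, all shared. Counts this small do not set the group apart from that background. Its 6 shared pairs had a median shift of -12.8, and the interval of -39.8 to 3.70 spans their whole range. Of the 6, 4 were lower without overlap and 0 higher, beside 23% and 22.9% of all shared autosomal peaks. With 6 pairs nothing is read from these counts. The 4 WT-only units had percentiles between 32.6 and 63.4, and the 5 shared WT units had percentiles between 80.3 and 96.7.

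On chromosome 6 the near-copies formed an array. Between Ezh2, the histone methyltransferase of Polycomb repressive complex 2, and Pdia4, an endoplasmic reticulum protein, the WT list had 15 units from 47604841 to 47718030. The median spacing was 4360 bp, and 11 of the 14 spacings lay between 4200 and 4500 bp. The largest spacing was 54554 bp. The 15 other WT peaks of the group, which include 1 copy outside the array, matched the strongest unit at a median identity of 99.3%, and the lowest was 92.0%. The clone 3 list had 14 of the 15, and the missing unit was chr6:47626499-47627074, the sixth of the 15, with WT values of 19.5 and 18.5. The copy outside the array, at chr6:128710701-128711295, nearest to Klrb1c, was WT-only too. Across the array WT percentiles ran from 45.4 to 86.7 and clone 3 percentiles from 32.9 to 81.7. In clone 3, 11 of 14 pairs were lower. Of the 14, 3 were lower and 1 was higher without overlap of the replicates. Over all shared autosomal peaks 23% were lower and 22.9% higher without overlap. Counts this small do not set the array apart from that background. The median shift was -6.08 (-23.9 to 4.01), and the interval holds 0. The 24-base sequences of this group occur a median of 16 times in the genome. Unique reads alone can leave units as alike as these under-called in both lists. The part of mapping in the missing unit and in the shifts was not tested.

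CpG density fell off around the members as it does around promoters, but sooner. In the 100 bp next to the midpoint, which the choice of peaks fixed, the CpG ratio was 0.802 for shared peaks, 0.842 for WT-only and 0.796 for clone 3-only outside the family. Between 500 and 600 bp it was 0.484, 0.495 and 0.464, against 0.609 for CpG-rich peaks within 5 kb of a TSS and 0.227 for CpG-poor distal peaks. Between 900 and 1000 bp it was 0.323, 0.306 and 0.313 against 0.398. In the last bin of 3 kb, shared peaks stood at 0.211 and CpG-poor distal peaks at 0.199. The LINE-side family started lower, at 0.671, and stood at 0.199 between 900 and 1000 bp. Shared and list-only members outside the family thus lay on nearly the same curve.

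**Figure D4:**
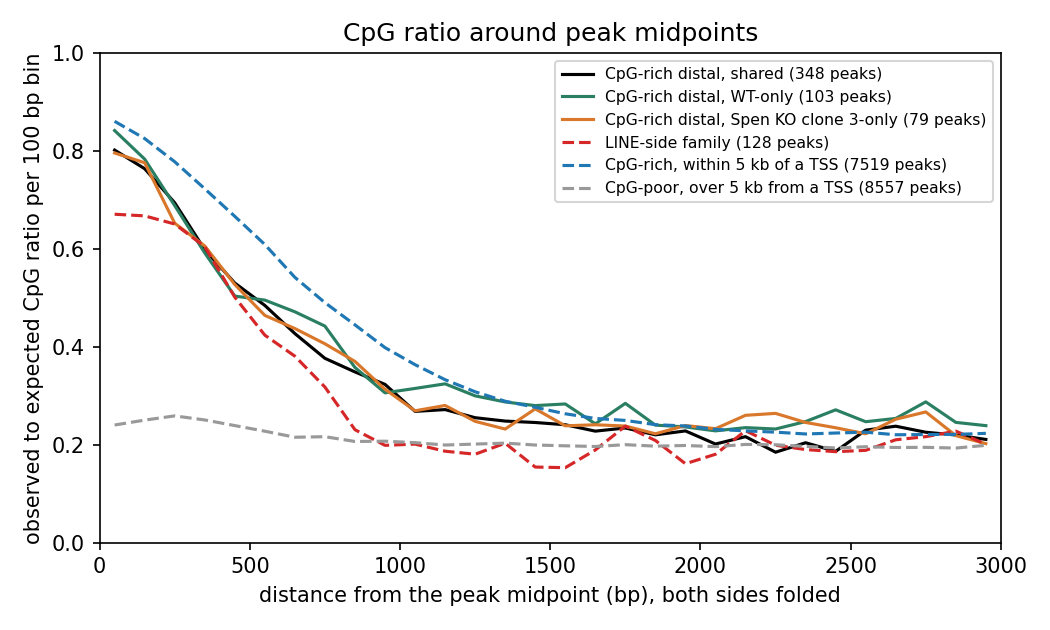
The observed to expected CpG ratio per 100 bp bin (vertical axis) is plotted against the distance from the peak midpoint in bp, with both sides of the peak added together. Shared, WT-only and Spen KO clone 3-only members outside the LINE-side family lie close together and below the CpG-rich peaks near a TSS at 500 to 600 bp (0.484, 0.495 and 0.464 against 0.609).

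A run of windows of 200 bp with a GC content of at least 50% and a CpG ratio of at least 0.6 was measured as the island at each midpoint. It was 500 bp or longer at 69.5% of WT members (65.5 to 73.3) and 73.2% of clone 3 members (69.4 to 76.7), and at 83.2% and 83.1% of the CpG-rich peaks within 5 kb of a TSS. Outside the family the share was 67.5% for shared WT peaks (62.4 to 72.2), 61.2% for WT-only (51.5 to 70.01) and 62.03% for clone 3-only (51.0 to 71.9). The longest members of both lists were LINE-side peaks. In WT it was chr4:72955787-72957466 (1680 bp, values of 16.04 and 11.2), which was shared. In clone 3 it was chr6:56196724-56198526 (1803 bp, values of 11.4 and 12.3), which was clone 3-only and lay in an intron of Pde1c.

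In position the members were more often outside genes than other distal peaks. Of the WT members 25.3% (21.7 to 29.2) and of the clone 3 members 27.5% (24.0 to 31.4) had a midpoint within a gene of any type, against 41.7% and 40.7% of CpG-poor distal peaks. Coding exons went the other way. They held 7.28% (5.35 to 9.83) of WT members and 7.10% (5.26 to 9.53) of clone 3 members, against 1.39% (1.16 to 1.66) and 1.46% (1.24 to 1.72) of CpG-poor distal peaks. Coding sequence is richer in GC than introns are, and the choice of peaks used GC content, so this contrast is a description.

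Clone 3-only members lay in genes more often than shared ones, at 40.5% (33.0 to 48.6) against 22.9% (19.1 to 27.2). Coding exons held 10.8% (6.76 to 16.8) and 5.78% (3.92 to 8.46), with intervals that overlap. CpG-rich peaks near a TSS had the same order. Over all autosomal peaks of clone 3 the order was the opposite for genes, with 46.7% (45.5 to 47.9) of clone 3-only and 50.5% (49.7 to 51.3) of shared peaks, and coding exons held 4.18% (3.72 to 4.70) and 4.37% (4.07 to 4.70). Outside the family 35 of 79 lay in a gene, or 44.3% (33.9 to 55.3), against 22.8% (18.7 to 27.4) of the shared clone 3 peaks, 29.1% (21.2 to 38.5) of the WT-only peaks and 24.1% (19.9 to 28.9) of the shared WT peaks. Coding exons held 16 of the 79, or 20.3% (12.9 to 30.4), against 24 of 356 shared clone 3 peaks, or 6.74% (4.57 to 9.83), and 11 of 103 WT-only peaks, or 10.7% (6.07 to 18.1). For both measures the clone 3-only interval overlapped that of the WT-only peaks. Among CpG-rich peaks within 5 kb of a TSS, coding exons held 13.8% (11.6 to 16.4) of clone 3-only and 7.51% (6.87 to 8.21) of shared clone 3 peaks, and genes held 68.7% (65.4 to 71.8) and 57.9% (56.6 to 59.1). Among CpG-poor distal peaks of clone 3, genes held 41.3% (39.7 to 43.02) of clone 3-only and 40.4% (39.1 to 41.6) of shared ones, and coding exons held 1.85% (1.44 to 2.36) and 1.24% (0.994 to 1.56). The score moved with this. In the lowest score quartile outside the family genes held 45.2% (33.4 to 57.5) of clone 3-only and 27.3% (17.3 to 40.2) of shared peaks. Coding exons held 15 of 62 clone 3-only peaks there, or 24.2% (15.2 to 36.2), and 7 of 55 shared ones, or 12.7% (6.30 to 24.0). For both measures the intervals overlap. One of these clone 3-only peaks was chr1:120733978-120734585 in a coding exon of Gli2, a transcription factor of the Hedgehog pathway, with values of 8.60 and 11.2.

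**Figure D5:**
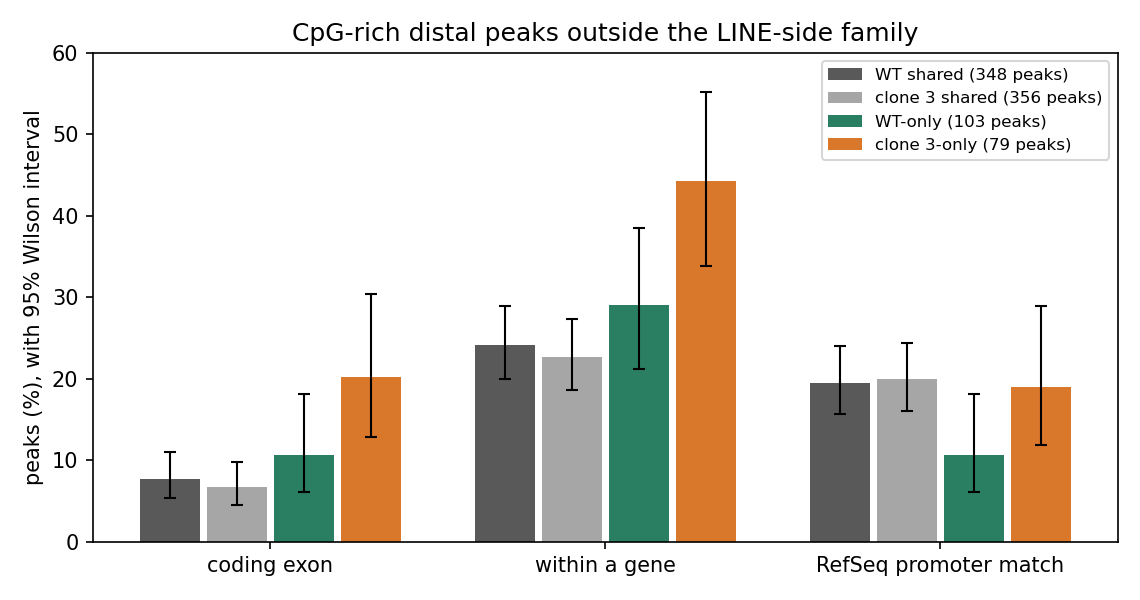
Bars give the percentage of CpG-rich distal peaks outside the LINE-side family whose midpoint lies in a coding exon or within a gene, or whose sequence matches a RefSeq promoter, with 95% Wilson intervals. The clone 3-only peaks stand at 20.3% for coding exons and 44.3% for genes, with intervals that overlap those of the WT-only peaks (10.7% and 29.1%).

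Some members that are distal to the mm9 annotation carry a promoter in RefSeq. Sequence alone was compared, with at least 98% identity over at least 150 bp to a RefSeq promoter of the GRCm38.p6 build on the chromosome of the same name. Outside the family 79 of 451 WT members matched, or 17.5% (14.3 to 21.3), and 86 of 435 clone 3 members, or 19.8% (16.3 to 23.8). Among CpG-poor distal peaks the shares were 2.56% and 2.14%, and among CpG-rich peaks within 5 kb of a TSS 72.0% and 71.9%. Of the matches, 56 in WT and 63 in clone 3 were to promoters of coding genes. Shared peaks matched in 19.5% of cases (15.7 to 24.0) in WT and 19.9% (16.1 to 24.4) in clone 3, WT-only peaks in 10.7% (6.07 to 18.1) and clone 3-only peaks in 18.99% (11.9 to 29.0). These intervals overlap. All 12 matches of the clone 3 family members were to non-coding RNA genes.

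Motifs were searched by their letters on both strands of the 300 bp around each midpoint, and no motif's letters hold those of another. The GC box of Sp and Klf factors (GGGCGG) was in 67.8% (63.4 to 72.0) of WT members outside the family and 69.2% (64.7 to 73.4) of clone 3 members, against 45.4% and 43.2% of all autosomal peaks. The letters TGCCGC, bound by Zfp57 at imprinted regions when methylated, were in 27.9% (24.0 to 32.3) and 28.3% (24.2 to 32.7), against 15.6% and 13.5%. The E-box CACGTG was in 10.9% (8.32 to 14.1) and 10.1% (7.62 to 13.3), against 6.83% and 6.07%. All of these hold CpG or are rich in G and C, as the chosen sequences are. CpG-rich peaks within 5 kb of a TSS gave 79.8%, 29.4% and 9.71% in WT.

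The ETS motif CCGGAAGT was less frequent among members outside the family, at 3.10% (1.86 to 5.14) in WT and 3.68% (2.28 to 5.89) in clone 3, than among CpG-rich peaks within 5 kb of a TSS, at 8.09% (7.49 to 8.72) and 8.24% (7.61 to 8.92). The octamer ATGCAAAT of Oct4 was in 1.55% (0.754 to 3.17) and 1.38% (0.634 to 2.98), against 5.34% (4.88 to 5.84) and 5.44% (4.995 to 5.91) of CpG-poor distal peaks. The Nrf1 motif GCGCATGCG was in 1.55% and 1.61%, the CRE TGACGTCA in 2.22% and 2.07%, and the CTCF core motif in 2.00% and 1.84%. None of the 79 clone 3-only peaks outside the family held the ETS motif (0 to 4.64), and neither did their sequences hold the CRE or the octamer. The shares of clone 3 members outside the family, 3.68%, 2.07% and 1.38%, lie within that interval, so nothing is read from this. A match is only a match of letters.

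The LINE-side family held the same motifs in nearly every copy. The GC box was in 71 of 71 WT members and 99.2% of clone 3 members. The letters AAGATGGCG of Yy1, a zinc finger factor that also binds the start of LINE-1 elements in human cells, were in 71 of 71 WT members and in 99.2% (95.7 to 99.9) of clone 3 members. Outside the family they were in 0.665% (0.226 to 1.94) and 0.920% (0.358 to 2.34), and over all autosomal peaks in 4.16% and 7.02%. Copies of 1 family share their letters by descent, so these are not independent sites.

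Genes near the members were read from lists. Of 225 genes for developmental transcription factors, members lay in or nearest to a gene of the list in 21 cases in WT, or 4.02% of members (2.65 to 6.07), of which 6 were WT-only, and in 18 cases in clone 3, or 3.20% (2.03 to 4.997), of which 3 were clone 3-only. CpG-poor distal peaks did so in 1.79% (1.53 to 2.09) and 1.78% (1.53 to 2.07). The WT intervals did not overlap and those of clone 3 did, by a narrow margin. The 6 of 21 that were WT-only and the 3 of 18 that were clone 3-only stand beside 26% and 28.4% of all autosomal peaks, and nothing is read from them. Both peaks in Sox6 introns were LINE-side copies. Distances and gene sizes differ between the classes, and their part was not tested.

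Each peak is given with the nearest or containing gene, which can be far away. The shared peak 13.3 kb from the TSS of Prdm8, a neural repressor, had WT values of 33.1 and 23.0 and clone 3 values of 35.4 and 38.9. Sox17 marks endoderm, and the shared peak nearest to it, 75.4 kb from its TSS, had 22.6 and 24.6 in WT and 23.9 and 14.8 in clone 3. In rank the Prdm8 peak was at percentile 77.4 in WT and 93.0 in clone 3, and the Sox17 peak at 66.2 and 57.9.

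Neurog2, a proneural factor, had 2 such peaks. The first, 7.59 kb from its TSS in WT, had 19.8 and 14.8 (percentile 39.1) in WT and 22.4 and 24.6 (percentile 72.98) in clone 3. The second, 7.01 kb away, had 21.9 and 23.9 (percentile 63.99) in WT and 23.9 and 19.7 (percentile 67.7) in clone 3. A peak 8.76 kb from the TSS of Foxj2 had 76.0 and 57.3 (percentile 99.1) in WT and 52.1 and 51.3 (percentile 98.1) in clone 3. A peak in a coding exon of Prdm13 had 28.2 and 21.1 (percentile 69.4) in WT and 17.6 and 17.6 (percentile 49.02) in clone 3.

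WT-only peaks lay in introns of Gata4 (17.1 and 12.1) and Pax3 (17.0 and 16.1). Others were nearest to Lhx5 (7.62 kb, 14.3 and 14.0), Pou3f2 (10.2 kb, 8.56 and 8.86), Pax2 (71.6 kb, 11.7 and 8.89) and Foxn2 (184.5 kb, 10.7 and 10.3). Clone 3-only peaks lay 8.43 kb from the TSS of Tbx18 (19.3 and 20.9), in the exon of Gli2 named above and in an intron of Meis2 (9.63 and 10.2). Of these 9 only the Tbx18 peak lay above the 35th percentile of its list, at 61.1. Of 95 genes for signalling ligands and receptors, 6 WT members (1.15%, 0.528 to 2.48) and 7 clone 3 members (1.24%, 0.604 to 2.54) were nearest or inside, against 0.748% and 0.618% of CpG-poor distal peaks, which lie within those intervals. Among them were a shared peak 52.9 kb from the TSS of Wnt7b, with values of 42.9 and 45.1 (percentile 94.5) in WT and of 37.5 and 33.4 (percentile 91.9) in clone 3, and a clone 3-only peak that matches the RefSeq promoter of Fgf12 (17.2 and 15.6).

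Genes for CpG-binding proteins themselves were also read. Of 11 such genes, 3 WT members, or 0.575% (0.196 to 1.68), and 0 clone 3 members were nearest or inside, against 0.140% (0.0802 to 0.245) and 0.0959% (0.0505 to 0.182) of CpG-poor distal peaks. Cxxc5, which has a CXXC domain, was the nearest gene to 2 WT-only peaks 58.1 and 58.6 kb from its TSS, with values of 13.5 and 14.4 and of 11.9 and 10.3. Tet1, a CXXC-domain enzyme that oxidises 5-methylcytosine, had a WT-only peak in an intron (9.78 and 7.75) that matches its RefSeq promoter. The Cxxc5 peaks adjoin each other and are in effect 1 locus. All 3 peaks were in the lowest score quartile of the WT list, where 59.7% of all autosomal peaks were WT-only (26% over all quartiles), and nothing is read from their being WT-only. For clone 3 the interval of 0 of 563 reached 0.678%, so the intervals of the 2 lists overlap. Of 9 DNA methylation genes none had a member in either list. Of 32 imprinted genes that could be placed, 3 WT members (0.575%, against 0.234% of CpG-poor distal peaks) and 2 clone 3 members (0.355%, against 0.213%) were nearest or inside. The strongest was a shared peak 6.34 kb from the TSS of Trappc9, with values of 53.3 and 62.1 (percentile 98.2) in WT and of 42.6 and 34.3 (percentile 93.8) in clone 3.

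The members were scattered over the genome. Of the 703 loci 55 (7.82%) lay within 10 kb of another, 197 lay in genes, and the median distance to the nearest other locus was 733 kb. Camk4, a calcium-dependent kinase gene, was the only gene to hold 3, and 7 genes held 2. By chromosome the members made up between 1.20% of WT peaks (chromosome 11) and 4.64% (chromosome 12), the chromosome with the largest group of near-copies. In clone 3 the range was 1.34% (chromosome 8) to 4.36% (chromosome 12).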

How the data were processed

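Assay for transposase-accessible chromatin (ATAC-seq) peaks were read from 1 list per line, WT and Spen KO clone 3. According to the methods, the authors aligned trimmed reads to mm9 (CutAdapt, Bowtie2), removed duplicates after keeping unique pairs, called peaks with MACS2 and combined 2 technical replicates by IDR. The deposited replicate values have no named scale. The lists do not give read depth, and 0 columns of other samples were left aside.

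Composition was computed from mm9 and distances from GENCODE vM1 (python 3.11.15, numpy 2.4.6, pandas 2.3.3, pysam 0.24.0, samtools 1.23.1). Families were found with megablast of BLAST 2.17.0 (80%, 100 bp). RefSeq promoters (32851 sequences) were matched by sequence only, and no coordinate was taken from them. L1Md_F sequence came from elements in the study's own repeat sheet (500 bp match within 8 kb). Sequence was called multi-copy where at least 50% of its 24-base sequences occur at least 10 times in mm9. Intervals are 95% Wilson intervals for shares and order-statistic intervals for medians, and cover counting error only. No p-value was computed, since each line has 1 list. The helper functions were tested on simulated data.

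The members and gene lists were chosen with earlier results of these data known. Peaks named with values were the 6 strongest shared, WT-only and clone 3-only members, the 3 largest shifts each way without replicate overlap, and the longest of each list; some of these and some peaks of listed genes are not reported here. Promoter matches, island lengths, sequence groups, peaks of listed genes and the position of weak peaks were read after values had been seen. Alternatives varied the limits of GC content, CpG ratio, distance, TSS type, LINE match, IDR, score and overlap.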

Additional observations from a re-analysis of the deposited data

How the results depend on the processing

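The share, shift and position results were recomputed under each alternative: 139 values stayed within their spread, 55 moved and 2 changed sign. Alternatives that leave out the LINE-side family, the near-copies or a replicate, and all values given by family, were chosen after seeing the data. With a CpG ratio of at least 0.75 the clone 3-only share was 19.5% and the WT-only share 25.4%, and with LINE matches kept the clone 3-only share was 30.1%. At scores from the list median up the shares were 6% and 5.33%. The WT-only share was 28.8% at an IDR of 0.01 or less. Without the LINE-side family the clone 3-only share was 18.2%, and without the near-copies as well 19.8%.

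Outside the family the clone 3-only share was 10.6% at an IDR of 0.01 or less, 25% with LINE matches kept, 14.6% with equal numbers of peaks and 3.18% at scores from the median up. The WT-only share was 28.1% and 5.49% at that IDR and score. In the family these gave clone 3-only shares of 74.2% and 26.7% and WT-only shares of 37.0% and 0%. The clone 3-only share outside the family was below the WT-only share in 13 of 14 alternatives, and the exception was with LINE matches kept.

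The median rank shift was -3.47 at the CpG ratio of 0.75, -4.68 at the stricter IDR and -2.90 without the family. It changed sign, to 0.00809, with LINE matches kept and also at scores from the median up. Outside the family it was -4.97 at the stricter IDR, -0.942 with LINE matches kept and -0.497 from the median score up. In the family it was 7.68 and 21.0 at the stricter IDR and from the median score up. Leaving out 1 replicate at a time gave -2.66 to -0.794 for all members, -4.43 to -1.39 outside the family and 8.16 to 18.7 in it, the smaller sizes without replicate 2.

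The intragenic share in clone 3 was 24.0% at the stricter IDR, 34.03% with coding TSS only and 21.6% from the median score up. In WT it was 21.5% at the CpG ratio of 0.75, 33.9% with coding TSS only and 30.5% beyond 2 kb. The multi-copy share, 27.4% in clone 3 and 18.4% in WT, was 9.5% and 8.78% at that CpG ratio, 32.3% and 22.1% at a GC content of 60%, 43.2% and 33.95% with LINE matches kept, 21.2% and 13.4% with coding TSS only, 33.3% and 22.4% beyond 10 kb, 23.2% and 14.9% beyond 2 kb, 23.1% and 14.2% from 50 copies, and 20.4% and 10.7% from the median score up. It was 5.98% and 5.54% without the family, 2.76% and 2.44% without the near-copies as well, and 14.8% in WT at the stricter IDR. The cause of these moves was not tested.

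The doxycycline state of the lists, their read depth and the scale of their values are unknown, and clone 3 is a single clone. No paired analysis was possible because each line has 1 combined list and no result comes from a test.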
